A study of Schizosaccharomyces pombe with 4 samples.

Results

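The 784 tiles described here are the highest 2% of 39207 array tiles on the arms of chromosome II by the wild-type (WT) ratio of newly made histone H3 to total DNA, in the fission yeast Schizosaccharomyces pombe. The array holds 43993 tiles in all; the arm tiles lie between 1000011 and 3049820 in the files' coordinates, without the centromere at 1593911 to 1654170 and the mating-type region at 2111000 to 2140120. The members were chosen by their log2 ratio in the WT array, from 0.84 to 2.28 after centring, so those WT values are a description and support nothing. The 10 members just inside the threshold had WT values of 0.840 to 0.841, and the 10 tiles just outside had 0.837 to 0.840. In the other 3 arrays the medians of these tiles were 0.72, 0.50 and 0.60 inside and 0.58, 0.39 and 0.39 outside, for clr3D, IRD2 and IRD2 clr3D in that order. With 10 tiles a side the ranges overlapped in each array (in clr3D 0.57 to 1.04 inside and 0.18 to 0.99 outside), so no step is read from them.

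The 4 strains were WT, clr3D (named for loss of Clr3, a histone deacetylase of heterochromatin), IRD2 (which the labels do not define) and IRD2 clr3D. All 4 carried the plasmid pINV1-H3.2-FLAG, grew in 8% glucose, were held with 15 mM hydroxyurea for 4 h, and then made FLAG-tagged H3 for 2 h in 4% sucrose, still in hydroxyurea. DNA bound by an anti-FLAG gel was labelled with Cy5 and whole-cell extract DNA with Cy3, and both were hybridised to 60-base tiles set every 50 bp. Each strain has 1 array, so nothing below has a replicate check or a test, the number of arrays limits the precision, and SD values are between tiles. Values are log2 of processed Cy5 over Cy3 minus the median of the array, unless stated otherwise. DNA was sheared to 400 to 600 bp, so neighbouring tiles share fragments and are not replicates of each other. No tile of clr3 was analysed here, so that deletion was not checked.

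A nucleosome wraps DNA around histones, and H3 is one of its core proteins. New H3 enters chromatin behind replication forks and also outside replication, where nucleosomes are evicted and rebuilt, as happens at promoters and over actively transcribed genes. Hydroxyurea starves forks of nucleotides and stalls them, so the block should lower the part of new H3 that depends on fork passage. How far forks moved in these cells was not measured. A single reading picked because it is high contains, on average, an upward error. A second reading of the same tiles is therefore expected to lie closer to the mean even where nothing has changed, which is called regression to the mean.

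Over the members the median ratio was 0.95 for WT (SD 0.18), and lower for clr3D at 0.78 (SD 0.26), IRD2 at 0.61 (SD 0.30) and IRD2 clr3D at 0.60 (SD 0.32), while the medians of all arm tiles lay between -0.014 and 0.002. They therefore stayed high in every array, and lower than in WT in each of the others. In clr3D none of the 784 members was below 0 (the lowest was 0.049), in IRD2 there were 21 (lowest -0.64) and in IRD2 clr3D 25 (lowest -0.42).

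Of the members, 418 (53.3%) were among the highest 2% of arm tiles in clr3D, 364 (46.4%) in IRD2 and 324 (41.3%) in IRD2 clr3D, against 2.00% of all arm tiles in each by construction. When the lists of the other arrays were made from Cy5 alone, these shares were 18.9%, 19.5% and 19.6%. The members were still those chosen by the WT ratio, and their share in a WT list by Cy5 was not computed. These lower shares therefore do not measure how well the arrays match in Cy5. Among the highest 10% were 722, 643 and 579 members, or 92.1%, 82.0% and 73.9%, against 10% of all arm tiles. The highest 2% of all 4 arrays shared 202 members (25.8%), and by construction no other arm tile can be among them. In the highest 10% of none of the other 3 were 27 members (3.44%). The shares of all arm tiles that meet these 2 conditions were not computed.

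**Figure D1:**
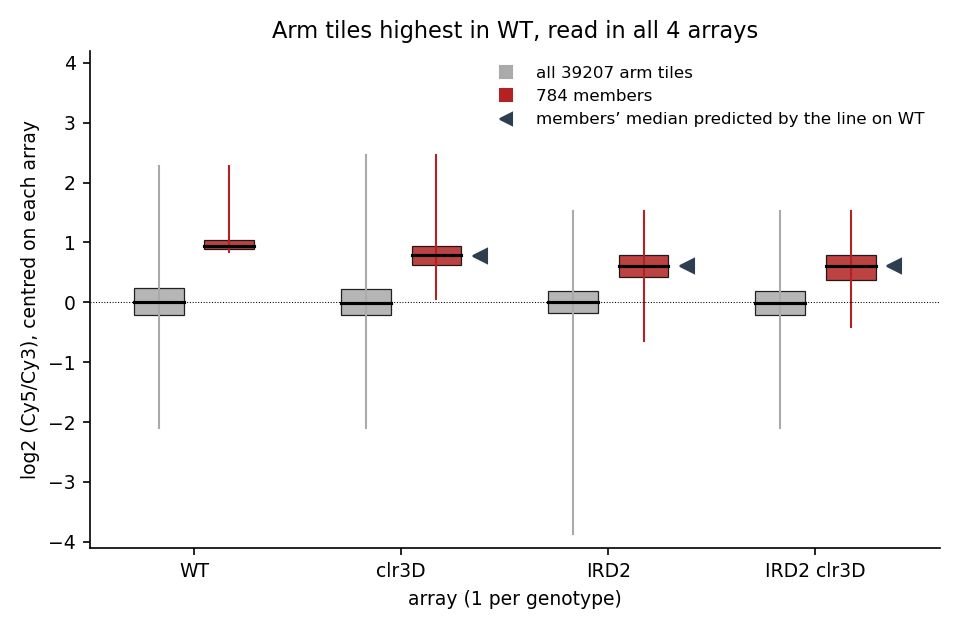
Centred log2 Cy5/Cy3 ratio (vertical axis) of all 39207 arm tiles (grey) and the 784 members (red) in each array: boxes span the quartiles, black bars mark medians, thin lines run from the lowest to the highest tile, and triangles mark the members' median predicted from a straight line on WT. The members' median goes from 0.95 in WT to 0.78, 0.61 and 0.60, and each triangle lies beside the observed median.

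The fall from WT was set against the line of each array on WT over all 39207 arm tiles. These tiles share arrays, extract DNA and base composition, and the correlation with WT was 0.868 for clr3D, 0.722 for IRD2 and 0.732 for IRD2 clr3D. The slopes were 0.84, 0.66 and 0.66. From them the members' medians were predicted to be 0.776, 0.605 and 0.602, and 0.784, 0.614 and 0.601 were observed. Tile by tile the median of observed minus predicted was -0.016 (SD 0.23), -0.016 (SD 0.28) and -0.024 (SD 0.30), and 46.3%, 48.0% and 46.6% of members lay above the line. As a set, the members were thus as high in the other arrays as the line through all arm tiles puts tiles of their WT level. The line takes up any difference between strains that scales with the WT level, so it does not part that from measurement error. With normexp background correction the median of observed minus predicted turned to 0.060 in IRD2 and 0.024 in IRD2 clr3D, and with a second-degree curve to 0.059 and 0.032.

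The choice was then turned around. The 784 arm tiles highest in clr3D had a median of 0.88 there and 0.86 in WT, those highest in IRD2 0.75 and 0.82, and those highest in IRD2 clr3D 0.78 and 0.79. Read in WT, these sets changed by medians of -0.045, 0.015 and -0.046, against -0.19, -0.37 and -0.39 for the members read the other way. The log2 ratio itself had a wider upper end in WT, whose 98th percentile over the arm was 0.84, against 0.76, 0.64 and 0.67 in the other arrays. On percentiles within each array, the overlap of the 2 lists is the same whichever way it is read, which favours close median percentiles. The members' medians were at percentiles 98.2 in clr3D, 97.7 in IRD2 and 97.1 in IRD2 clr3D. Those of the sets chosen in these arrays were at 98.2, 97.7 and 97.4 in WT. The members' lower quartiles were at percentiles 95.9 in clr3D, 92.9 in IRD2 and 89.0 in IRD2 clr3D, and those of the sets chosen in these arrays were at 95.9, 94.9 and 94.2 in WT.

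Within WT the fall on a second reading was small. When only every other tile was used to choose the highest 2%, the chosen tiles had a median of 0.946 in one set and 0.945 in the other (392 each), and the next tile, 50 bp further, had 0.880 and 0.886. The same next tiles had 0.71 and 0.73 in clr3D, 0.54 and 0.59 in IRD2, and 0.51 and 0.58 in IRD2 clr3D. Those tiles were not used in the choice, and they too were lower in the other 3 arrays than in WT. Neighbours share fragments with the chosen tile, so this second reading does not cover errors of a whole array.

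By rank the members kept their order on average. The highest 0.5% of arm tiles in WT (196 tiles) had medians of 1.16, 0.97, 0.78 and 0.74 in WT, clr3D, IRD2 and IRD2 clr3D. The lower 392 members, ranked between 1% and 2%, had 0.88, 0.71, 0.53 and 0.55. The 392 tiles just below the members, ranked between 2% and 3%, had 0.80, 0.65, 0.47 and 0.45.

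Differences from WT use the WT values that chose the members, which favours a fall, so nothing is read from these counts. Lower than WT by over 0.5 were 72 members in clr3D (9.18% of members, where 0.515% of all arm tiles were that much lower), 231 in IRD2 (29.5%, against 3.42% of all arm tiles) and 273 in IRD2 clr3D (34.8%, against 3.91%). The 3 differences between mutant arrays did not use WT. IRD2 lay below clr3D by a median of -0.15 over the members (SD 0.27), with 74 members lower by over 0.5 (9.44%, against 2.45% of arm tiles) and none higher by that much (against 0.105%). IRD2 clr3D lay below clr3D by a median of -0.17 (SD 0.30), with 105 lower (13.4%, against 2.51%) and 2 higher (0.255%, against 0.110%). IRD2 clr3D differed from IRD2 by a median of -0.006 (SD 0.23), with 23 lower (2.93%, against 0.775%) and 6 higher (0.765%, against 0.921%). So among the mutants the members stood highest in clr3D, which is also the array most like WT over the arm, and at near equal medians in the IRD2 arrays. Whether that likeness accounts for the order was not tested.

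Both channels took part in these differences. Between IRD2 and clr3D the members' Cy3 signal was higher by a median of 0.10 and Cy5 was lower by -0.087, and between IRD2 clr3D and clr3D the medians were 0.097 and -0.086. With Cy5 alone the 2 median differences were therefore -0.087 and -0.086, smaller than in the ratio by over 1.5 times.

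The members came in runs. Joining members with at most 1 other tile between them gave 197 stretches, of which 98 were single tiles. Stretches of 3 or more held 620 members (79.1%), and the 52 stretches of 5 or more held 572 (73.0%). These 52 were 260 to 1560 bp long with a median of 560 bp, and 34 of them lay within 5 kb of another. Members in stretches of 10 or more had medians of 1.01, 0.80, 0.67 and 0.66 in WT, clr3D, IRD2 and IRD2 clr3D. The 98 single members had 0.88, 0.76, 0.48 and 0.48.

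Of the single members, 28.6% were in the highest 2% of IRD2 and 24.5% of IRD2 clr3D, against 54.6% and 46.6% of members in stretches of 10 or more. In clr3D the shares were 48.0% and 55.8%. The single members' own WT level was lower, and their medians of observed minus line-predicted level were 0.036 in clr3D, -0.094 in IRD2 and -0.095 in IRD2 clr3D.

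Around the members the ratio fell with distance. Tiles 50 bp from the nearest member (504 tiles) had a median of 0.73, 0.57, 0.41 and 0.39 in WT, clr3D, IRD2 and IRD2 clr3D. At 500 bp (205 tiles) the medians were 0.31, 0.22, 0.13 and 0.10, and at 2000 bp (140 tiles) they were 0.004, -0.009, -0.013 and -0.020. The choice of the highest WT tiles fixes the peak at the members in WT, and neighbouring tiles share fragments.

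**Figure D2:**
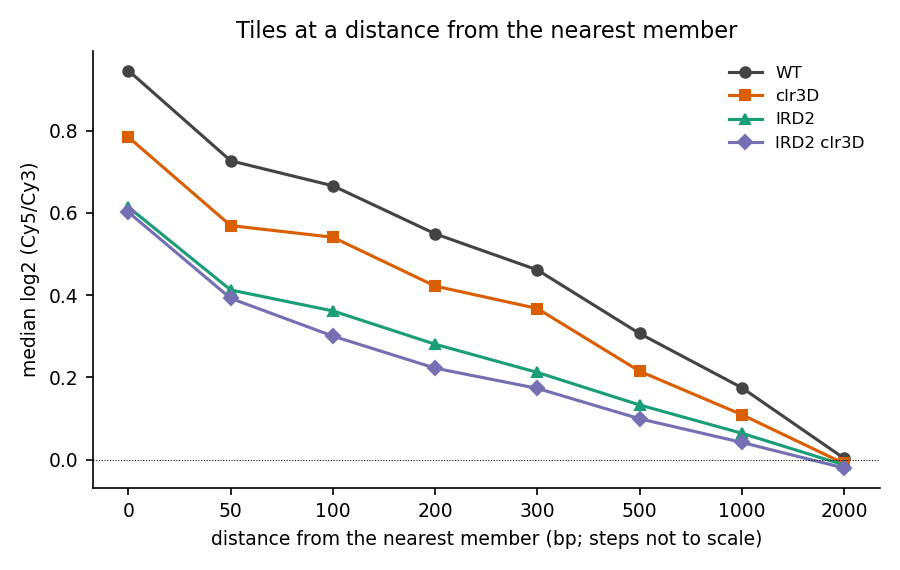
Median centred log2 Cy5/Cy3 ratio (vertical axis) of tiles at 0 to 2000 bp from the nearest member (horizontal axis, steps not to scale), 1 line per array. All 4 lines fall towards 0, from 0.95 to 0.004 in WT and from 0.61 to -0.013 in IRD2.

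Along the chromosome the members were uneven. Of 21 bins of 100 kb, none was empty; the share of tiles that were members ran from 0.25% (5 tiles, first at 1700000 to 1799999) to 8.62% (79 of 916 tiles at 1600000 to 1699999, the right flank of the centromere), with a median of 1.65%. The bin starting at 2500000 held 119 members (5.95%).

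Gene names and places rest on an inferred placement, since the files name no genome build. The extract signal follows base composition, and in 26 windows of the arm its correlation with GC content of the ASM294v3 reference peaked at an offset of -900 bp in the first block of tiles and within 5 bp of -1800 bp in the other 2. Coordinates printed here are those of the files.

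Inside coding genes lay 476 members (60.7%), against 79.5% of all arm tiles. Coding sequence held 43.1% of members and 59.7% of arm tiles, 5′ untranslated regions 9.31% and 6.11%, 3′ untranslated regions 8.16% and 10.8%, and introns 0.128% (1 member) and 3.21%. Along coding genes divided into 5 equal parts from start to end, members were 1.16%, 1.49%, 1.66%, 2.19% and 1.15% of tiles, so the part before the last held most.

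Outside coding genes were 308 members (39.3%), against 20.5% of arm tiles. Most of them, 237 members (30.2% against 12.2% of arm tiles), lay in a gene of long non-coding RNA (lncRNA) and in no coding gene. Many lncRNA genes overlap coding genes. Of the 476 members inside coding genes, 54.4% also lay in a lncRNA gene, against 45.6% of arm tiles inside coding genes. Gaps between diverging coding genes held 205 members (26.1% against 10.9%), gaps between genes of the same direction 98 (12.5% against 8.40%), and gaps between converging genes 5 (0.638% against 1.12%). In no annotated gene lay 68 members (8.67% against 8.06%).

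Shares next to gene starts and ends differed by the kind of place and by the placement. Within 500 bp upstream of any gene start, lncRNA genes included, lay 284 members (36.2%), against 43.0% of arm tiles. Without the placement offset these shares were 46.8% and 43.1%, so the side of the arm share on which the members fall depends on the placement. Upstream of coding genes the shares were 14.7% and 19.9%, and within 500 bp downstream of their ends 8.55% and 20.7%. In bins of 100 bp, members were 0.818% of tiles centred 100 bp before coding starts, 1.98% at 500 bp into the gene and 2.34% at 500 bp before the start. About coding ends they were 0.583% at 200 bp after the end and 2.05% at 500 bp before it.

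**Figure D3:**
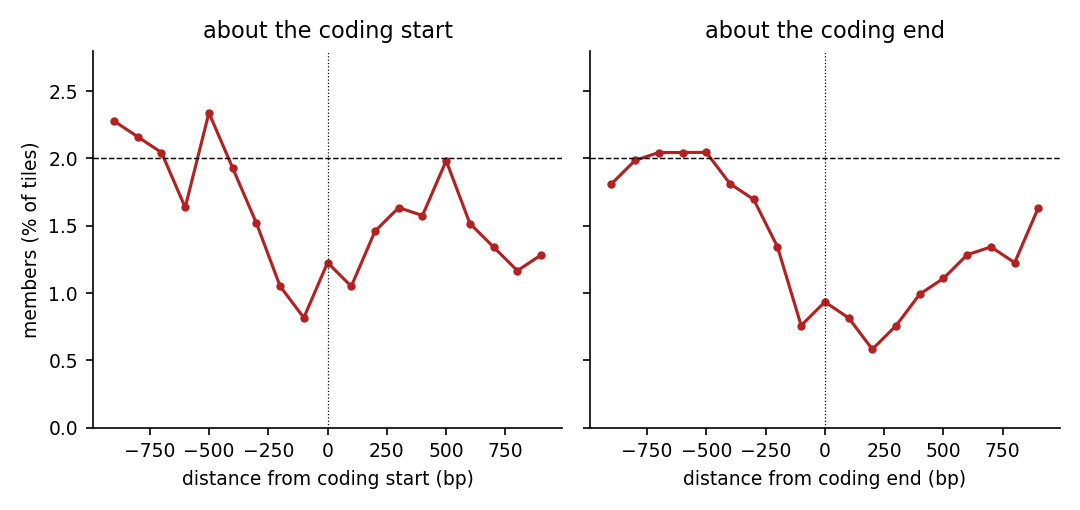
Share of tiles that are members (vertical axis, percent) in bins of 100 bp from 900 bp before to 900 bp after the start (left) and end (right) of coding genes; the dashed line marks the 2% of the arm. The share dips to 0.818% just before starts and to 0.583% just after ends.

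Wide gaps between coding genes held far more. Members were 1.53% of tiles inside coding genes, 0.436% in gaps up to 500 bp, 0.438% in gaps over 500 to 1000 bp, 3.04% over 1000 to 2000 bp, 8.74% over 2000 to 3000 bp and 13.7% over 3000 bp. Gaps of at least 2000 bp held 216 members (27.6%), against 4.74% of arm tiles, and 23.7% of members when no placement offset was applied. The median gap around members outside coding genes was 2905 bp, against 1122 bp for all such arm tiles. Of 658 arm tiles over 1000 bp from any coding start or end and outside coding genes, 110 (16.7%) were members.

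Gap width comes from the annotation and not from the ratios, although its classes were chosen after values had been seen. The 1080 arm tiles in gaps over 3000 bp, members or not, had a median ratio of 0.42 in WT (SD 0.48), 0.31 in clr3D (SD 0.45), 0.031 in IRD2 (SD 0.58) and 0.034 in IRD2 clr3D (SD 0.39). From gaps up to 500 bp to those over 3000 bp the class median went from -0.069 to 0.42 for WT and from -0.057 to 0.31 for clr3D. Class medians of the gaps lay between -0.045 and 0.031 for IRD2, and for IRD2 clr3D they went down to -0.16 at 1000 to 2000 bp before reaching 0.034. The median GC content of these classes ran from 30.0% to 36.7%, and its part in the result was not tested. With Cy5 alone all 4 arrays were below 0 in gaps of at least 2000 bp, at -0.53, -0.59, -0.65 and -0.60. The extract was below 0 there too, at -0.83, -0.79, -0.64 and -0.56. It was thus lower than Cy5 in WT and clr3D, and near Cy5 in the IRD2 arrays. In gaps over 3000 bp the tiles that were not members had ratio medians of 0.33, 0.24, -0.036 and -0.014.

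Both channels differed there. The median difference of IRD2 from WT over these 1080 tiles was -0.34 in the ratio, -0.19 in Cy5 and 0.18 in the extract, and for IRD2 clr3D it was -0.34, -0.092 and 0.28. In gaps up to 500 bp, IRD2 differed by 0.080 in the ratio, 0.14 in Cy5 and 0.065 in the extract, and IRD2 clr3D by -0.001, 0.22 and 0.23. The extract thus rose in gaps of both widths in IRD2 clr3D, and Cy5 was lower in the wide gaps and higher in the narrow ones. The part of the extract in the result was not tested.

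**Figure D4:**
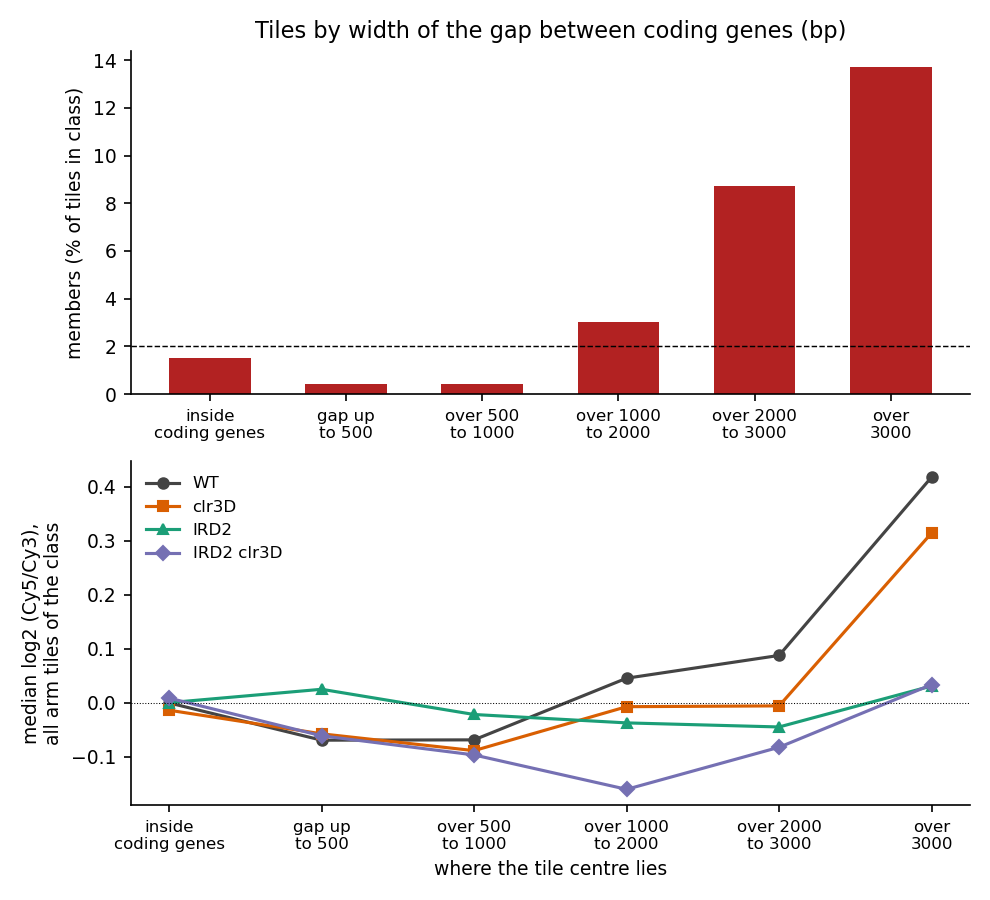
Top: share of tiles that are members (vertical axis, percent; the dashed line marks 2%) inside coding genes and in gaps of rising width. Bottom: median centred log2 Cy5/Cy3 ratio of all arm tiles of the same classes, 1 line per array; above 3000 bp WT is at 0.42 and clr3D at 0.31, and IRD2 and IRD2 clr3D are at 0.031 and 0.034.

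Of the 30 gaps of at least 2000 bp, 19 held a member, and the 5 with most held 127 of the 216. Gap medians ran from -0.54 to 0.84 in WT, with 21 of 30 above 0. IRD2 was below WT in 26 of the 30, IRD2 clr3D in 27 and clr3D in 21. These gap medians include the members, which were chosen for high WT values, so the counts lean on the choice. Gaps without a member went both ways. From pfk1 to sad1 IRD2 was below WT (0.19 against 0.38), and from mrpl35 to atf21 it was above (-0.46 against -0.54). The gap from alp4 to SPBC365.16 (2532 bp, 26 members), most of which lncRNA SPNCRNA.1524 covers, had the highest median in WT, 0.84, and 0.45 in clr3D, 0.31 in IRD2 and 0.10 in IRD2 clr3D.

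Members inside coding genes had higher levels in the IRD2 arrays than those outside. Inside, the medians were 0.93, 0.79, 0.65 and 0.68 in WT, clr3D, IRD2 and IRD2 clr3D. Outside, they were 0.97, 0.76, 0.52 and 0.41. Over all arm tiles the medians inside were -0.0002, -0.014, 0.0002 and 0.009, and outside 0.014, -0.013, -0.012 and -0.091. In IRD2 clr3D the arm as a whole was thus also lower outside coding genes, by less than the members were. Observed minus line-predicted medians inside were 0.009, 0.035 and 0.073 for clr3D, IRD2 and IRD2 clr3D, and outside -0.061, -0.11 and -0.21. Members inside coding genes had a median GC content of 41.7% (38.3% for arm tiles there) and those outside 36.7% (31.7%).

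Most of the same members make up the long stretches, which give the levels by place rather than a second reading. Of the 52 stretches of 5 or more, 31 lay mostly inside coding genes and 21 mostly outside. Stretch medians inside had a median of 0.94, 0.77, 0.69 and 0.72 in WT, clr3D, IRD2 and IRD2 clr3D, and outside 0.98, 0.76, 0.48 and 0.40. Medians under 0.5 were found in IRD2 for 6 of 31 inside and 11 of 21 outside, and in IRD2 clr3D for 4 and 11. In clr3D the counts were 1 and 3, and the medians inside and outside were close. The extract differed too: its median over inside stretches was 0.15, 0.19, 0.20 and 0.31 in WT, clr3D, IRD2 and IRD2 clr3D, and over outside stretches -0.33, -0.25, -0.090 and -0.15. Its part in the result was not tested.

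**Figure D5:**
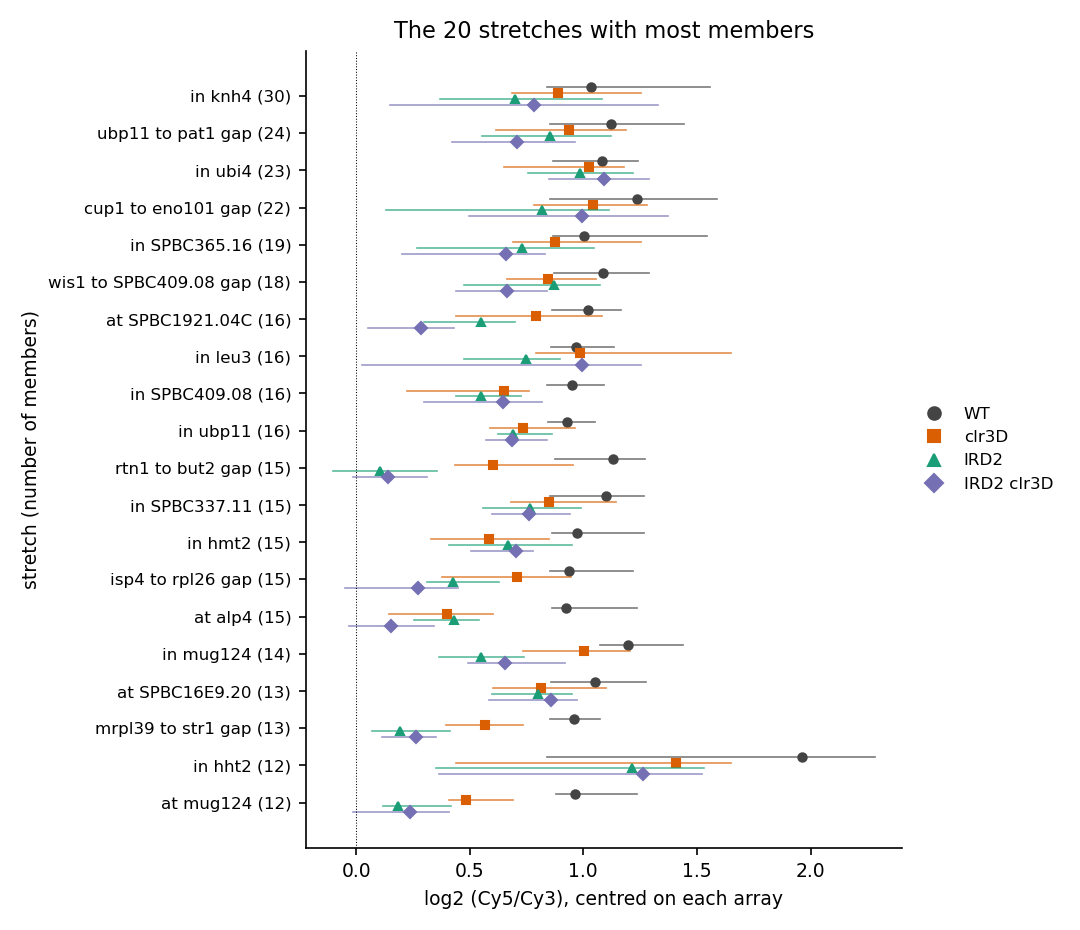
The 20 stretches with most members (vertical axis, by gene or flanking genes, with the number of members); symbols are medians and lines run from the lowest to the highest member of the stretch in each array, as centred log2 Cy5/Cy3 ratio (horizontal axis). The stretch in ubi4 lies near 1 in all 4 arrays, and those between rtn1 and but2 and between mrpl39 and str1 have medians under 0.3 in both IRD2 arrays.

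The longest stretch, 30 members over 1560 bp at 1972611 to 1974170, lay wholly inside knh4. Its medians were 1.03, 0.89, 0.70 and 0.78 in WT, clr3D, IRD2 and IRD2 clr3D, and 25, 20 and 18 of its members were in the highest 2% of the 3 other arrays. The WT range was 0.84 to 1.56 and that of IRD2 clr3D 0.15 to 1.33, so the ranges overlapped.

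The next, 24 members at 1681761 to 1683020, lay in the gap between ubp11, a ubiquitin hydrolase gene, and pat1, whose kinase holds back meiosis. Its medians were 1.12, 0.94, 0.85 and 0.71 in WT, clr3D, IRD2 and IRD2 clr3D. The members overlap the lncRNA genes SPNCRNA.5296 and SPNCRNA.5297. Beside it, 16 members inside ubp11 had 0.93, 0.73, 0.69 and 0.68.

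In ubi4, the polyubiquitin gene, 23 members at 1045311 to 1046520 had 1.08, 1.03, 0.99 and 1.09. This stretch was equally high in all 4 arrays, and 22 of its members were in the highest 2% of all of them. The gene is made of repeats, 19 of the 23 tiles occur more than once in the reference, and the extract signal was 1.33 to 1.53 above the array median, so these tiles do not read separate places.

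Between cup1 and eno101, the enolase gene, 22 members at 2200061 to 2201220, over lncRNA SPNCRNA.394, had 1.23, 1.04, 0.82 and 0.99. All 22 were in the highest 2% of clr3D, 14 of IRD2 and 21 of IRD2 clr3D. Over the whole gap the medians were 0.66, 0.61, -0.03 and 0.49, with IRD2 the lowest.

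Around SPBC365.16 there were 38 members in the gene and the 500 bp before its start, the most of any gene. Their medians were 0.96, 0.91, 0.78 and 0.66. The gene next to it in the count, SPNCRNA.1524, had 36 members with 0.96, 0.53, 0.42 and 0.17. The 2 genes neighbour each other, and 6 of the 36 members lie before the start of SPNCRNA.1524, in a window that runs into SPBC365.16.

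Between wis1, a kinase gene of the stress pathway, and SPBC409.08, 18 members at 1150811 to 1151820 had 1.09, 0.85, 0.87 and 0.66, and 16 members inside SPBC409.08 had 0.95, 0.65, 0.55 and 0.65. In leu3, an isopropylmalate synthase gene of leucine synthesis, 16 members at 2690211 to 2691070 had 0.97, 0.98, 0.75 and 0.99. The leu3 members were as high in clr3D and IRD2 clr3D as in WT. Across the start of SPBC1921.04C, 16 members at 2412961 to 2413820 (31.2% of them inside the gene) had 1.02, 0.79, 0.55 and 0.29, and none of them was in the highest 2% of IRD2 clr3D.

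Several long stretches had medians under 0.3 in both IRD2 arrays, where the upper quartile of all arm tiles was 0.18 in IRD2 and 0.19 in IRD2 clr3D. Between rtn1, a reticulon gene, and but2, 15 members at 1267911 to 1268670 had 1.13, 0.60, 0.10 and 0.14 in WT, clr3D, IRD2 and IRD2 clr3D. The range was -0.10 to 0.36 in IRD2 and 0.43 to 0.95 in clr3D. Their Cy5 was 1.31, 1.06, 0.90 and 0.89 in WT, clr3D, IRD2 and IRD2 clr3D. Their extract was 0.24, 0.38, 0.74 and 0.76 in the same order. A choice by high WT ratio favours high Cy5 and low extract in WT. The stretch was also picked for low ratios in the IRD2 arrays, which favours low Cy5 and high extract there. No shift of either channel is therefore read from these values.

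Between mrpl39 and str1, a siderophore transporter gene, 13 members at 2705661 to 2706370 had 0.96, 0.57, 0.19 and 0.26. At the start of mug124, 12 members at 1689011 to 1689670 had 0.96, 0.49, 0.19 and 0.24. Between pgm1 and tdh1, which encodes glyceraldehyde-3-phosphate dehydrogenase, 9 members at 2807811 to 2808420 had 0.88, 0.82, -0.24 and -0.02. In this last stretch clr3D was near WT, and both IRD2 arrays were below 0.

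In fmo1, a flavin monooxygenase gene, the pattern differed: its 11 members had 0.90, 0.17, 0.27 and 0.19 in WT, clr3D, IRD2 and IRD2 clr3D, low in all 3. In sul1, a sulfate transporter gene, 13 members had 0.96, 0.74, 0.97 and 0.95, with clr3D the lowest. In isp4, an oligopeptide transporter gene, 10 members had 0.95, 0.51, 0.51 and 0.49. The genes hmt2, a sulfide oxidoreductase gene (17 members), gsf1, a flocculin gene (17), and map4, a mating adhesin gene (11), had 0.93, 0.95 and 0.98 in WT and 0.66, 0.59 and 0.78 in IRD2.

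The 202 members in the highest 2% of all 4 arrays lay in 47 stretches, and 149 of them (73.8%) were inside coding genes, against 60.7% of all members. The largest numbers of them were in ubi4 (22), between cup1 and eno101 (14), in knh4 (13), between ubp11 and pat1 (13) and in leu3 (13). Tiles that occur more than once in the reference made up 26 of the 202, against 28 of all 784 members. Such tiles do not read separate places. The 27 members in the highest 10% of no other array had medians of 0.89, 0.35, 0.24 and 0.13. Of these, 12 were inside coding genes (44.4%, against 60.7% of all members) and 10 in gaps of at least 2000 bp (37.0%, against 27.6%). In the stretch that runs from the end of alp4 into the gap before SPBC365.16 lay 6 of them, and 5 were in the longest stretch of fmo1.

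The highest WT values stood in hht2, which encodes H3. Its 12-member stretch at 1365911 to 1366620 had a median of 1.96, 1.41, 1.21 and 1.26 in WT, clr3D, IRD2 and IRD2 clr3D. The highest member of all, at 1366161 to 1366220, had 2.28, 1.65, 1.53 and 1.52. The extract signal over the stretch was above the array median by 1.05, 1.48, 1.62 and 1.62 in the same order. The cells carry H3 coding sequence on the plasmid as well, and its part in these values was not tested. The neighbouring H4 gene hhf2 had 6 members in the gene and 8 in the 500 bp before its start, a window that reaches into hht2. Its body had mean ratios of 0.79, 0.37, 0.25 and 0.12 in WT, clr3D, IRD2 and IRD2 clr3D. Of the 5 members with the highest WT ratio all were in hht2. The seventh, a single tile at 2603561 to 2603620 that was named after its values were seen, had 1.98, 0.70, 0.14 and 0.41, with an extract signal of -2.37 in WT and -1.10, -1.06 and -0.97 in the others.

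Some members were dim. In WT 35 of them were not well above background in at least 1 channel (4.46%, against 0.291% of arm tiles), and 36 in any array. Their GC content was at most 18.3%, and 26 of the 36 lay outside coding genes. Their medians were 1.02, 1.40, 0.80 and 0.45. The members' median GC content was 40%, against 36.7% for the arm. Of arm tiles in 4 equal groups by GC content, 1.63%, 1.08%, 1.83% and 3.46% were members, from low to high GC.

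Of 857 measured coding genes, 90 (10.5%) had a member in the gene or the 500 bp before its start, as did 139 of 1142 lncRNA genes (12.2%) and 234 of all 2016 genes (11.6%). Of the gene lists, the histones had 2 of 3 (hht2 and hhf2, and not pht1, which encodes H2A.Z), glycolysis and fermentation 1 of 4 (fba1, the aldolase gene, by 1 member before its start) and core stress genes 2 of 5. In ish1, a stress-induced nuclear envelope gene, 22 members had 0.89, 0.76, 0.38 and 0.66, and atf1, a stress transcription factor gene, had 1 member. The only measured gene under the MBF transcription factor, cdc18, which licenses replication origins, had 6 members with 0.87, 0.72, 0.61 and 0.70. The only measured gene of sugar use, the glucose repressor gene scr1, had 3 with 1.01, 0.81, 0.43 and 0.42. No member was found among 13 genes of DNA replication, 5 of heat shock and chaperones, 4 of meiosis, 3 histone chaperones and remodellers or 23 ribosomal protein genes. Around tRNA genes, with 500 bp on both sides, 1 of 14 had a member. The lists are small against a share of 10.5% over coding genes.

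Promoters are shown for the 3 coding genes with most members (9 each) in the 500 bp before the start, because their levels in the other arrays differ. The sequences are the 200 bases before the annotated gene start in RefSeq's ASM294v3, chromosome II, minus strand for all 3, written 5′ to 3′ on the strand of the gene, with matches to the motifs searched in capitals. Mean ratios of the 10 tiles before the start were 0.96, 0.76, 0.57 and 0.31 for SPBC1921.04C in WT, clr3D, IRD2 and IRD2 clr3D, 0.97, 0.89, 0.84 and 0.43 for art1, an arrestin-related gene, and 0.96, 0.46, 0.19 and 0.15 for mug124.
SPBC1921.04C: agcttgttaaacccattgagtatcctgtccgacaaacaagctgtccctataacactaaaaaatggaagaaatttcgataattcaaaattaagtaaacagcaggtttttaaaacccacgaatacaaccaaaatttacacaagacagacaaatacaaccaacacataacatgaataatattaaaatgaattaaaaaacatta
art1: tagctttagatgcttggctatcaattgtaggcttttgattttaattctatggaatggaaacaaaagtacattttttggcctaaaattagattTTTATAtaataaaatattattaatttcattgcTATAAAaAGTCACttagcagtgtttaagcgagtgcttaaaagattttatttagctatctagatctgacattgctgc
mug124: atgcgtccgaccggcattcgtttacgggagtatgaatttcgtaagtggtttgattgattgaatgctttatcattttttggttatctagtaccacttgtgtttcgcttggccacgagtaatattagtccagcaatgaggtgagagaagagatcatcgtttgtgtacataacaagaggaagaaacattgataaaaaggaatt

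In the 200 bases before the start, on either strand, the box TATAAA was found for 11 of the 38 coding genes with a member before the start (28.9%), against 34.3% of 861 coding genes. ACGCGT (the MBF element) was found for none, against 2.21%. TGACGT (bound by Atf1-type factors) was found for 4 (10.5%, against 3.95%), and AGTCAC for 1 (2.63%, against 8.71%). A run of 8 A or 8 T was found for 8 (21.1%, against 12.8%). Of the 3 promoters printed, art1 holds TATAAA and AGTCAC, which do not overlap, and the other 2 hold none of the letters searched.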

How the data were processed

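Each deposited scanner file gives 2-colour spot intensity, read out with Agilent Feature Extraction 12.0.3.1 as its header states; per the file headers the processed signals are background-subtracted and normalised between dyes. The deposited value table gives the linear Cy5 over Cy3 ratio of those signals, not centred (column medians 0.971 to 1.01). From these, log2 of processed Cy5 over Cy3 was computed and centred on each array's median over 43993 tiles, with no loess or quantile step. The 1227 control spots per array were left out. No spot was saturated, 99.6% to 99.7% of tiles rose well above background, and outlier spots (9 to 21 per array) stayed in.

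The members and the gene lists were chosen with earlier results of these data known. Places come from RefSeq annotation at an inferred offset; the authors' genome build is not given in the sources used here. Genes with at least 3 tiles were counted, and a difference over 0.5 counted as called. Named genes are those of the 10 stretches with most members, the 20 genes with most members, those at the 5 highest members, and list members; other stretches described were chosen after their values were seen. The choice, stretches, line and placement search were tested on simulated data. Alternatives used other spot signals, normexp (offset 50, on median in place of the planned mean spot signals) and loess in limma 3.58.1 with R 4.3.3, and other member rules.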

Additional observations from a re-analysis of the deposited data

How the results depend on the processing

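Members' medians, shares in the highest 2% of other arrays, distance from the line and mutant differences were computed again with other spot signals, without dim and outlier spots, for the highest 1% and 5%, and for members chosen on the mean of 3 tiles. Chosen after seeing the data were the values without hht2 and hhf2, those without repeated tiles, and all alternatives for gaps of at least 2000 bp, coding genes and the offset of those places. Of 183 alternative values, 171 stayed within the SD between tiles or, for shares, within 1.5 times, and 12 moved further. That SD was larger than some of the values judged (0.27 against -0.15 for IRD2 minus clr3D). A small value could thus change sign and still count as having stayed, so the count says little about small differences. Members' medians ran from 0.67 to 1.01 in clr3D, 0.49 to 0.79 in IRD2 and 0.49 to 0.80 in IRD2 clr3D. The median distance from the line ran from -0.082 to -0.008, -0.15 to 0.060 and -0.10 to 0.032, so its sign was not fixed in the IRD2 arrays. With lists by Cy5 alone, and members still chosen by the WT ratio, the shares in the highest 2% were 18.9%, 19.5% and 19.6%. For the highest 5% they were 32.3% in clr3D and 29.5% in IRD2, where the list compared stayed at 2%. IRD2 minus clr3D ran from -0.17 to -0.087, IRD2 clr3D minus clr3D from -0.20 to -0.086 and IRD2 clr3D minus IRD2 from -0.086 to -0.002. With Cy5 alone all tiles in gaps of at least 2000 bp had medians of -0.53, -0.59, -0.65 and -0.60 in WT, clr3D, IRD2 and IRD2 clr3D. The extract medians there were also low, at -0.83, -0.79, -0.64 and -0.56, and the cause was not tested. The main ratio medians were 0.30, 0.22, 0.007 and -0.008, so Cy5 alone had the other sign in WT, clr3D and IRD2. With normexp these were 0.16, 0.038, -0.039 and -0.056 and with loess 0.35, 0.26, 0.075 and 0.080, so the IRD2 arrays had no fixed sign there. The share of members before a gene start was 20.3% within 300 bp, 70.9% within 1000 bp and 14.7% for coding genes only, below the arm share each time (27.8%, 71.9% and 19.9%); without the placement offset it was 46.8%, above the arm share of 43.1%. Stretches of 3 or more held 64.4% to 88.3% of members. No paired analysis was possible because each strain has 1 array. Leaving out replicates was not possible for the same reason.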
